A study of Mus musculus with 14 samples.

Results

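The genes described here are 7 genes of cell contact in granulosa cells (GCs): the connexin genes Gja1, Gja4 and Gjc1, the cadherin genes Cdh2 and Cdh1, the catenin gene Ctnna1 and the tight junction scaffold gene Tjp1. All 7 of 7 were found by Ensembl identifier among the 55414 genes of the count table. They were chosen on their measured levels in these same libraries, as TMM-scaled CPM (counts relative to the size of the library) across all 4 groups. Their levels and the differences between groups are therefore given as a description, without p-values.

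RNA-seq was done on GCs from antral follicles of mouse ovaries, in 14 libraries of about 50 cells each. The db model comprised 4 libraries from db/db mice (B6.BKS(D)-Leprdb/J), which lack the long form of the leptin receptor, and 4 from lean controls of that strain (CT db). The ob model comprised 3 libraries from ob/ob mice (B6.Cg-Lepob/J), which lack leptin, and 3 from lean controls of that strain (CT ob). All were females on chow taken at 12 wk of age, so every group shared tissue, sex, diet and age. Mutants of either strain carry the defect in the whole body from birth and are obese, so loss of the signal in GCs and obesity cannot be told apart. By their labels the controls were wild type, by the column names of their libraries heterozygous, and this was not settled here. Between models, the effects of model and strain cannot be separated. Nothing in the sources states that each library came from a separate animal, so a p-value measures the spread between these samples only. A library is named here by its group and the number in its column name.

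Connexins are the subunits of gap junctions, the channels that join the cytoplasm of neighbouring cells. In the follicle, connexin 43 (from Gja1) joins GCs to each other, whereas connexin 37 (from Gja4) is made mainly by the oocyte and forms the channels between the oocyte and the GCs around it. Cadherins hold cells together at adherens junctions, where catenins tie them to actin, and ZO-1 (from Tjp1) is a scaffold that binds both connexin 43 and the proteins of tight junctions.

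The total counts ranged from 3624237 to 4840714 per library in CT db (median 3731548.5), from 2204686 to 3059777 in db/db (median 2361740.5), from 3664219 to 4847166 in CT ob (median 3762905) and from 5306632 to 8367593 in ob/ob (median 6907152). A level of 3 counts, taken as the detection floor, amounted to 0.369 to 1.30 CPM. The 10 granulosa cell markers were all detected in every library, with summed levels of 5678 to 16450 CPM and Inha as the most abundant (here and below by the mean over the libraries). Transcripts of GCs were thus present in all 14 libraries, which does not measure how pure the cells were. The 5 leukocyte markers summed to at most 6.23 CPM (most abundant Cd68), and the 6 endothelial markers to at most 36.6 CPM, in CT ob library 65 (most abundant Pecam1).

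Transcripts of oocytes differed more between libraries than those of any other marker list. In CT db the summed CPM of the 11 oocyte markers was 3.38, 295, 174 and 16.9 in libraries 37, 51, 69 and 75. In db/db it was 8.95, 57.6, 78.4 and 11.6 in libraries 24, 53, 68 and 81. In CT ob it was 1268, 338 and 86.0 in libraries 60, 65 and 68, and in ob/ob 924, 243 and 176 in libraries 106, 41 and 50. CT ob library 60 and ob/ob library 106 thus stood apart, with all 11 markers above the floor, whereas 1 of 11 was above it in CT db library 37 and 2 of 11 in db/db libraries 24 and 81. Gdf9, a growth factor of the oocyte, had the highest mean of these markers, with 339 CPM in CT ob library 60 and 199 CPM in ob/ob library 106. No oocyte marker was at 0 in all 14 libraries.

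Other libraries stood apart in other ways. The 9 theca and stroma markers (most abundant Ptch1) summed to 390.5 CPM in db/db library 24, with Cyp17a1 at 256 CPM, and to 56.9 to 139 CPM in the other 13 libraries. The 6 markers of the ovarian surface epithelium (most abundant Krt8) summed to 30.7 to 65.9 CPM. The markers of mural cells (3 genes, most abundant Nppc) summed to 14.3 to 82.9 CPM. In CT ob library 68, 24.5% of all counts lay on the 18S ribosomal RNA gene Rn18s-rs5, against 1.10% to 12.8% in the other libraries.

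Per kb of the annotated main transcript, Gja1 had a mean level of 2632 CPM over the 14 libraries, followed by Ctnna1 with 33.02, Cdh2 with 21.7, Tjp1 with 13.6, Gja4 with 8.67, Gjc1 with 0.737 and Cdh1 with 0.528. Gja1 lay above every other of the 7 genes in every library, with 1184 CPM per kb at the lowest. Neighbours in the rest of this order overlapped over the libraries, for instance Ctnna1 with 27.0 to 43.02 and Cdh2 with 12.4 to 38.7 CPM per kb. With the length of all annotated exons in place of the main transcript, the order was the same except that Cdh1 (0.504) came before Gjc1 (0.421).

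**Figure D1:**
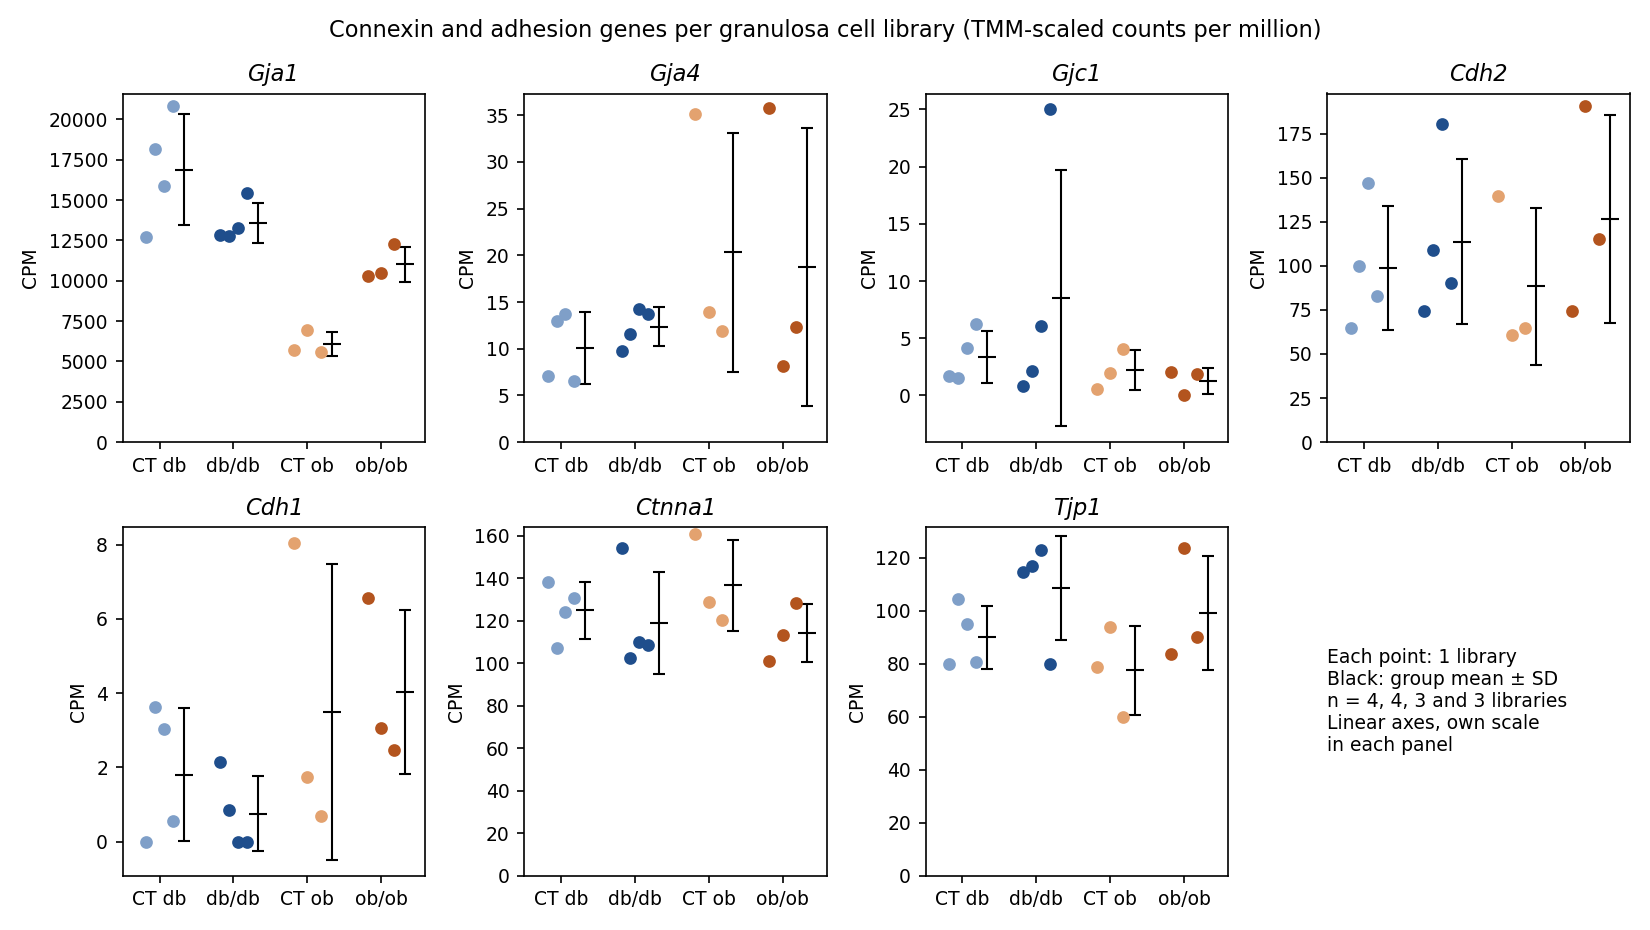
Level of each of the 7 genes in every library, as TMM-scaled CPM on linear axes with a scale of their own. Points are libraries, and black lines give the group mean ± SD (n = 4 for CT db and db/db, n = 3 for CT ob and ob/ob). The 3 CT ob libraries lie lowest for Gja1, between 5563 and 6934 CPM, and a single library stands out for Gjc1 in db/db, with 80 counts.

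Gja1 was among the most abundant of all genes, ranking between the 2nd and the 5th of the table in each library. In CT db it had 12695, 18164, 15881 and 20835 CPM in libraries 37, 51, 69 and 75. In db/db it had 12863, 12796, 13255 and 15419 CPM in libraries 24, 53, 68 and 81. The CT ob libraries 60, 65 and 68 had 5719, 6934 and 5563 CPM, and ob/ob had 10308, 10468 and 12264 CPM in libraries 106, 41 and 50. Every CT ob library was below every library of the other groups, every ob/ob library was below every db/db library by a narrow margin, and CT db and db/db overlapped. The group means were 16894 ± 3455 CPM in CT db (SD, n = 4), 13583 ± 1240 CPM in db/db (SD, n = 4), 11013 ± 1086 CPM in ob/ob (SD, n = 3) and 6072 ± 751 CPM in CT ob (SD, n = 3).

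As log2 fold changes of the level, Gja1 differed by -1.47 (SE 0.19) in CT ob against CT db, a 2.77-fold lower level. The difference was 0.85 (SE 0.22) in ob/ob against CT ob, a 1.81-fold higher level, -0.32 (SE 0.19) in db/db against CT db and -0.30 (SE 0.18) in ob/ob against db/db. The change from control to mutant thus had opposite signs in the models, but in the db model the groups overlapped. The ob change minus the db change was 1.17 (SE 0.26), which also takes in the gap between the controls. Leaving out each library in turn, the difference lay between -1.59 and -1.36 for the controls, between 0.77 and 0.97 for the ob model, between -0.43 and -0.20 for the db model and between -0.39 and -0.24 for the mutants. Without the 18S gene it was -1.47 for the controls and 0.86 in the ob model. Without CT ob library 60 and ob/ob library 106, those highest in oocyte transcripts, it was -1.43 and 0.85. In these samples of pooled cells, fewer cells that express a gene and less of its RNA per cell cannot be told apart.

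Gja1 lies on chromosome 10 from 56253241 to 56278609 (GRCm39, plus strand). It held nearly all connexin transcripts: of the summed CPM per kb of 20 connexin genes, Gja1 made up 99.7% to 99.8% in CT db, 99.5% to 99.7% in db/db, 98.2% to 99.3% in CT ob and 98.9% to 99.8% in ob/ob. The genes whose log2 CPM over the 14 libraries was most like that of Gja1, out of 12585 compared, were Papss2 (Pearson's r = 0.962), Sc5d (r = 0.955) and Gtf2a2 (r = 0.955). All had their lowest levels in CT ob. Papss2, an enzyme that makes the sulphate donor of the cell, had 144 to 179 CPM in CT ob and 230.4 to 398.5 CPM in the other groups. Sc5d, an enzyme of cholesterol synthesis, had 58.1 to 80.5 CPM in CT ob and 91.7 to 165 CPM in the others.

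Gja4 is on chromosome 4 from 127205214 to 127207851 (GRCm39, minus strand). In CT db it had 7.04, 13.0, 13.7 and 6.55 CPM in libraries 37, 51, 69 and 75, and in db/db 9.80, 11.6, 14.3 and 13.8 CPM in libraries 24, 53, 68 and 81. In CT ob it had 35.1, 13.95 and 11.9 CPM in libraries 60, 65 and 68. In ob/ob it had 35.7, 8.17 and 12.3 CPM in libraries 106, 41 and 50. CT ob library 60 and ob/ob library 106 were the only libraries above 14.3 CPM, and the groups overlapped in all 4 comparisons. These were also the libraries with the most oocyte transcripts, 1268 and 924 CPM summed over the 11 markers, and the part of oocyte RNA in the level of Gja4 was not tested. In the other 12 libraries Gja4 was present at 6.55 to 14.3 CPM, also in CT db library 37, where the oocyte markers summed to 3.38 CPM.

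The log2 fold change of Gja4 was 1.02 (SE 0.48) in CT ob against CT db and 0.36 without CT ob library 60. In ob/ob against db/db it was 0.59 (SE 0.48), and without ob/ob library 106 it was -0.27. For ob/ob against CT ob it was -0.13 (SE 0.61), from -0.998 without ob/ob library 106 to 0.52 without CT ob library 60, and its sign also turned without ob/ob library 41 or 50. These 3 differences thus depended on single libraries. For db/db against CT db it was 0.29 (SE 0.30), between 0.13 and 0.45 with each library left out. The genes most like Gja4 were Zfp108 (r = 0.889), Parp12 (r = 0.885) and Sall4 (r = 0.877), each highest in CT ob library 60 and ob/ob library 106. Sall4, a transcription factor of germ cells and oocytes, had 16.5 and 12.1 CPM there and at most 5.11 CPM elsewhere. It was above the floor in 8 of 14 libraries.

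**Figure D2:**
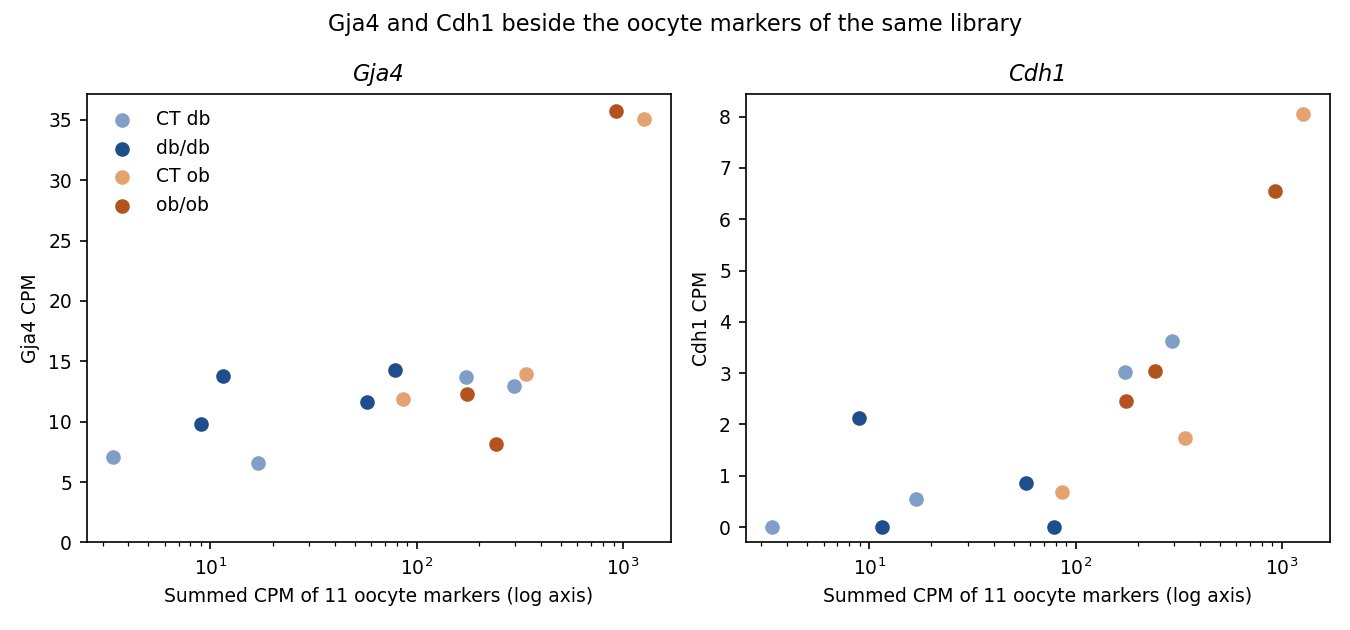
CPM of Gja4 (left) and Cdh1 (right) against the summed CPM of the 11 oocyte markers in the same library (log axis). Each point is 1 of the 14 libraries, coloured by group. CT ob library 60 (1268 CPM of oocyte markers) and ob/ob library 106 (924 CPM) had the highest levels of both genes.

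Gjc1, which encodes connexin 45, is on chromosome 11 from 102686879 to 102710532 (GRCm39, minus strand) and was near the floor. It had 6, 7, 15 and 23 counts in CT db libraries 37, 51, 69 and 75. It had 2, 5, 14 and 80 counts in db/db libraries 24, 53, 68 and 81. In CT ob it had 3, 8 and 12 counts in libraries 60, 65 and 68, and in ob/ob 12, 0 and 15 counts in libraries 106, 41 and 50. All groups overlapped, and db/db library 81, at 4.43 CPM per kb, was the highest, followed by CT db library 75 at 1.11 CPM per kb. The log2 fold change was 1.38 (SE 0.81) in db/db against CT db and -0.16 without library 81. In ob/ob against db/db it was -2.72 (SE 1.08), and -1.20 without library 81. For ob/ob against CT ob it was -0.70 (SE 1.09), and 0.05 without CT ob library 68. Between the controls it was -0.67 (SE 1.08), from -1.43 without CT ob library 68 to -0.17 without CT ob library 60. The genes most like it were Cda (r = 0.870), Atxn2 (r = 0.866) and Gadd45b (r = 0.840), of which Cda was above the floor in only 6 of 14 libraries. Gadd45b, a gene of the stress response, also stood out in db/db library 81, with 188 CPM against 19.6 to 42.6 CPM in the other db/db libraries.

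Among the other 20 genes of gap junction channels (17 connexins and 3 pannexins), 14 never exceeded 3 counts in any library. A count of 0 allows up to 0.369 to 1.30 CPM, depending on the library. Panx1, a large-pore channel of the cell membrane, was the only one above the floor in all 14 libraries, at 30.3 to 70.3 CPM. Gjc3 was highest in db/db libraries 81 (9.69 CPM) and 53 (8.60 CPM).

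Cdh2 encodes N-cadherin, the main cadherin of GCs, and lies on chromosome 18 from 16700793 to 16942381 (GRCm39, minus strand). In CT db it had 65.0, 99.7, 147 and 82.7 CPM in libraries 37, 51, 69 and 75. In db/db it had 74.6, 109, 181 and 90.3 CPM in libraries 24, 53, 68 and 81. In CT ob it had 140 CPM in library 60, 61.0 in library 65 and 64.6 in library 68, and in ob/ob 74.2, 190.4 and 115 CPM in libraries 106, 41 and 50. Levels varied up to 3.12-fold between libraries, and each group held both low and high ones, so that all groups overlapped. The log2 fold change was 0.20 (SE 0.29) in db/db against CT db, 0.51 (SE 0.41) in ob/ob against CT ob, -0.15 (SE 0.39) between the controls and 0.16 (SE 0.38) between the mutants. Its sign turned when 1 library was left out in all but the ob model. There the change ran from 0.10 without ob/ob library 41 to 1.004 without CT ob library 60, and was 1.27 without CT ob library 60 and ob/ob library 106.

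The libraries with the highest Cdh2, CT db library 69, db/db library 68 and ob/ob library 41, were also highest in Inhba and Cyp19a1, genes chosen after their values were seen. Inhba, a subunit of activin and inhibin, had 2548, 2049 and 1521 CPM in these libraries and 24.0 to 751 CPM in the other 11. Cyp19a1, the aromatase that makes oestradiol, had 106, 105 and 83.6 CPM there and 6.56 to 32.8 CPM elsewhere. Both belong to the 10 granulosa cell markers, of which only Inhbb was also highest in these libraries (1208, 1612 and 2319 CPM, at most 1055 elsewhere). The rest of that list did not share this order. Amh had 104, 115 and 58.6 CPM there and 732 CPM in CT ob library 65. Foxl2 had 81.3, 74.9 and 98.2 CPM there and 143 CPM in CT ob library 68. Cdh2 was also high in CT ob library 60, where Inhba was at its lowest (24.0 CPM), so the libraries did not follow 1 order. Lhcgr, the receptor of luteinizing hormone, had 8.79, 1.30 and 1.25 CPM in the same 3 libraries and was highest in CT db library 51, at 67.7 CPM. The genes most like Cdh2 were Lzts1 (r = 0.891), Gm31759 (r = 0.879) and Ppl (r = 0.848), which encodes the desmosomal protein periplakin. Ppl was near the floor, at 0 to 6.23 CPM, and above it in 8 of 14 libraries.

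Cdh1 encodes E-cadherin, the cadherin of epithelia and of oocytes, and lies on chromosome 8 from 107329941 to 107396880 (GRCm39, plus strand). It had 0, 17, 11 and 2 counts in CT db libraries 37, 51, 69 and 75, and 5, 2, 0 and 0 counts in db/db libraries 24, 53, 68 and 81. In CT ob it had 42, 7 and 2 counts in libraries 60, 65 and 68, and in ob/ob 38, 22 and 20 counts in libraries 106, 41 and 50. The highest levels, 8.05 CPM in CT ob library 60 and 6.56 CPM in ob/ob library 106, were again in the libraries highest in oocyte markers. The lowest, at 0 counts, were in CT db library 37 and db/db libraries 68 and 81, with 3.38, 78.4 and 11.6 CPM of oocyte markers. The part of oocyte RNA in the level of Cdh1 was not tested.

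In the db model Cdh1 had too few counts for the filter and has no fold change. Between the controls its log2 fold change was 0.97 (SE 0.98), and -0.54 without CT ob library 60. For ob/ob against CT ob it was 0.13 (SE 0.81), from -0.40 without ob/ob library 106 to 1.65 without CT ob library 60, and it was also below 0 without CT ob library 65 or 68. For ob/ob against db/db it was 2.45 (SE 1.14), from 1.91 without ob/ob library 106 to 3.80 without db/db library 24. All ob/ob libraries (2.46 to 6.56 CPM) lay above all db/db libraries (0 to 2.13 CPM), by a narrow margin and near the floor. Cdh1 passed the filter of that fit through libraries of the other groups, with at most 5 counts in db/db. The gap between the mutants is therefore only a description. The db/db libraries also had less oocyte RNA, with at most 78.4 CPM of the markers against 176 or more in ob/ob. The genes most like Cdh1 were Myo5b (r = 0.963), Enox1 (r = 0.9504) and Zfp296 (r = 0.937). All had their highest levels in CT ob library 60 and ob/ob library 106, and Zfp296 was above the floor in only 7 of 14 libraries.

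Cdh2 made up 66.5% to 88.6% of the summed CPM per kb of the 19 cadherin genes in a library. Of the 17 cadherins other than Cdh1 and Cdh2, only Cdh3 (P-cadherin) and Cdh24 were above the floor in all 14 libraries, at 1.38 to 13.1 CPM and 2.19 to 9.09 CPM. Of the 17, 3 never exceeded 3 counts, and none was at 0 in all libraries.

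Ctnna1 encodes alpha-catenin, which ties the cadherin complex to actin, and is on chromosome 18 from 35226033 to 35387833 (GRCm39, plus strand). It was the steadiest of the 7 genes, with a coefficient of variation of 14.9% over the 14 libraries. In CT db it had 138, 107, 124 and 131 CPM in libraries 37, 51, 69 and 75, and in db/db 154, 102, 110.0 and 109 CPM in libraries 24, 53, 68 and 81. The CT ob levels were 161, 129 and 120.3 CPM in libraries 60, 65 and 68, and in ob/ob 101, 113 and 128 CPM in libraries 106, 41 and 50. The groups overlapped in every comparison, and db/db library 24 lay above the rest of its group. The log2 fold changes were -0.07 (SE 0.16) in db/db against CT db, -0.27 (SE 0.19) in ob/ob against CT ob, 0.13 (SE 0.17) between the controls and -0.06 (SE 0.17) between the mutants. Without CT ob library 60 and ob/ob library 106 the change in the ob model was -0.05. The sign turned in the other direction in 2 comparisons. Between the controls the change was -0.002 without CT ob library 60. Between the mutants it was 0.09 without db/db library 24 and 0.02 without ob/ob library 106. The genes most like it were Adnp2 (r = 0.894), Ace (r = 0.893) and Ccdc91 (r = 0.888), and Ace shared the high values of db/db library 24 (9.38 CPM) and CT ob library 60 (12.5 CPM).

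Tjp1 lies on chromosome 7 from 64945898 to 65177529 (GRCm39, minus strand). In CT db it had 79.9, 105, 94.8 and 80.5 CPM in libraries 37, 51, 69 and 75, and in db/db 115, 117, 123 and 79.7 CPM in libraries 24, 53, 68 and 81. The CT ob levels were 78.8, 93.7 and 59.8 CPM in libraries 60, 65 and 68, and in ob/ob 83.7, 124 and 89.9 CPM in libraries 106, 41 and 50. The groups overlapped, although 3 of 4 db/db libraries were above all CT db libraries. The log2 fold change was 0.26 (SE 0.17) in db/db against CT db, 0.35 (SE 0.23) in ob/ob against CT ob, -0.21 (SE 0.20) between the controls and -0.13 (SE 0.20) between the mutants. With each library left out in turn, it stayed between 0.20 and 0.39 in the db model and between 0.16 and 0.51 in the ob model. Between the controls it ran from -0.37 to -0.08, and between the mutants from -0.32 to -0.02. The genes most like it were Efcab11 (r = 0.891), H3f3a (r = 0.885) and Trf (r = 0.883), which encodes transferrin.

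Set beside all tested genes, the 7 genes give no more than a description: having been chosen on these values, they are only counted among the genes called, and nothing is read from the counts. In db/db against CT db, 0 of the 6 that were tested were called by edgeR's quasi-likelihood method, and 0.00884% of all 11317 tested genes were called (1 gene). In ob/ob against CT ob it called 0 of 7, against 0% of 12425 genes, although DESeq2 called 86 genes there and 1014 had an unadjusted p under 0.05. In CT ob against CT db it called 1 of 7 (Gja1), against 6.63% of 12586 genes, in ob/ob against db/db 0 of 7, against 0.0159%, and for the difference between the mutant effects 0 of 7, against 0% (72 genes by DESeq2, 1021 with an unadjusted p under 0.05). The groups did not overlap in 0 of 6 of the genes in db/db against CT db (4.13% of all genes), in 1 of 7 in ob/ob against CT ob (Gja1; 15.7%), in 1 of 7 in CT ob against CT db (Gja1; 21.2%) and in 2 of 7 in ob/ob against db/db (Gja1 and Cdh1; 9.91%). Cdh1 was near the floor in db/db and passed the filter through libraries of the other groups. Several of these comparisons share their control or mutant libraries.

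Tests were possible for the other genes of cell junctions, 116 genes in 8 lists without the 7 chosen ones, of which 48 passed the filter in the db model, 51 in the ob model and 54 in the fit of all libraries. Between the lean controls, 4 of the 54 were DEGs (7.41%, beside 6.63% of all genes), 3 higher and 1 lower in CT ob, whereas 282 of all genes called were higher and 552 lower. An unadjusted p under 0.05 was found for 13 of the 54 (24.1%, beside 26.9% of all tested genes). The DEGs of the junction lists that were higher were Fscn1 and Myo10, which shape the actin of the thin projections that GCs send to the oocyte, and Src, a kinase that phosphorylates connexin 43. The one that was lower was Nectin3, an adhesion molecule of adherens junctions. The median log2 fold change was 0.15 over the 54 genes and 0.06 over all tested genes.

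**Figure D3:**
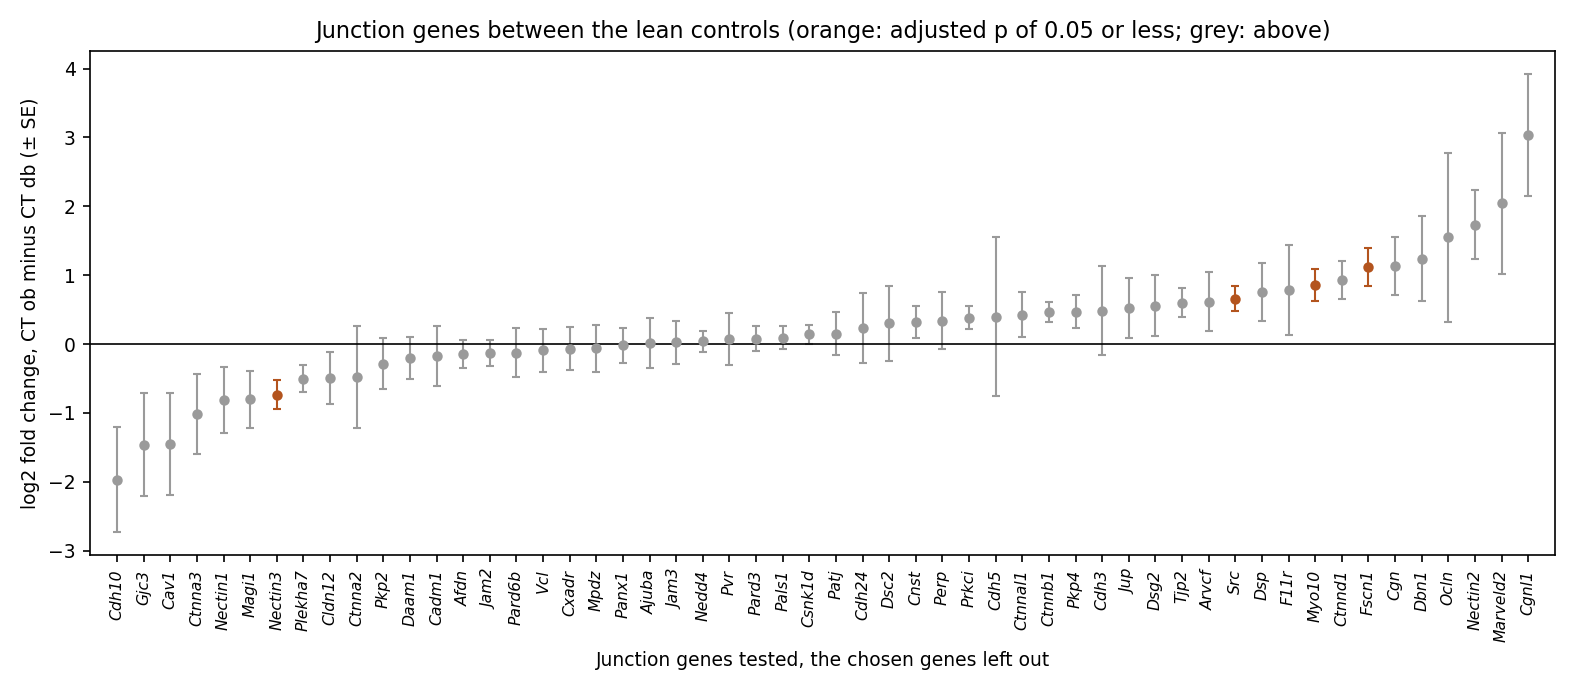
Log2 fold change (± SE) in CT ob against CT db for each of the 54 junction genes tested outside the 7 chosen ones, from the fit of all 14 libraries and sorted by size. The 4 genes with an adjusted p of 0.05 or less are orange (Nectin3 at -0.74, Src at 0.66, Myo10 at 0.86 and Fscn1 at 1.12), and genes above it are grey.

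Fscn1, the actin-bundling protein fascin, had 429.6 CPM in CT ob library 60, 202 in library 65 and 589 in library 68, as against 134 to 232 CPM across CT db. The log2 fold change was 1.12 (SE 0.27, adjusted p = 0.0305 from edgeR), with 2 of 3 CT ob libraries above all of CT db. Myo10, the myosin that carries cargo to the tips of filopodia, had 291, 220.5 and 240.0 CPM in CT ob libraries 60, 65 and 68 as against 115 to 199.6 CPM across CT db. The log2 fold change was 0.86 (SE 0.23, edgeR adjusted p = 0.0424), with all 3 CT ob libraries above CT db. Fscn1 was highest in the library with the largest 18S share and Myo10 in the library with the most oocyte transcripts. In the list of transzonal projections the other gene, the formin gene Daam1, had a log2 fold change of -0.20 (SE 0.30, edgeR adjusted p = 0.695).

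Src had 39.9, 30.6 and 40.5 CPM in CT ob libraries 60, 65 and 68 and 18.3 to 28.7 CPM across CT db (log2 fold change 0.66, SE 0.18, edgeR adjusted p = 0.0453). Nectin3 had 41.2, 32.6 and 41.1 CPM in the same libraries and 43.6 to 74.5 CPM across CT db (log2 fold change -0.74, SE 0.21, edgeR adjusted p = 0.0481). In both genes all 3 CT ob libraries lay outside the range of CT db. Nectin2, its relative, was at 5.75 to 16.0 CPM in CT ob and 1.69 to 4.67 CPM in CT db but had an edgeR adjusted p of 0.0527 (log2 fold change 1.74, SE 0.51).

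Of the markers of other cells, only the endothelial list did not overlap between the controls. The sums for theca and stroma, leukocytes, oocytes and the ovarian surface epithelium overlapped. The 6 endothelial markers (most abundant Pecam1) summed to 23.4, 36.6 and 9.52 CPM in CT ob libraries 60, 65 and 68, with 3, 6 and 3 of them above the floor. In CT db libraries 37, 51, 69 and 75 they summed to 3.38, 3.83, 9.07 and 4.64 CPM, with 2, 2, 4 and 2 above the floor. Every CT ob library was thus above CT db, the highest of CT db by a narrow margin. The 3 markers of the GCs around the oocyte summed to 868 to 1184 CPM in CT ob and to 439 to 999 CPM in CT db, so that these groups overlapped. The part of other cells, or of this type of GC, in the calls was not tested.

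The calls depended on the libraries and settings of the fit. With only the CT ob and CT db libraries in the fit, 0 of the 4 genes were called, and the number of DEGs over all genes fell from 834 to 3. With every library thinned to the smallest total, 1 of the 4 was called (Fscn1) and 514 genes in all. Without CT ob library 60 and ob/ob library 106, 0 junction genes and 175 genes in all were called. Leaving out CT db library 51, CT db library 75 or CT ob library 68 left 0 junction genes called, with 138, 201 and 112 genes in all. Without CT ob library 60 the number was 1 junction gene (Nectin2) and 376 in all, and without ob/ob library 106 it was 1 and 604. Without CT db library 69 it was 2 and 482. Leaving out ob/ob library 50 or any 1 of the 4 db/db libraries gave 2 junction genes. The log2 fold changes themselves moved less, between 0.74 and 1.44 for Fscn1, 0.73 and 1.08 for Myo10, 0.55 and 0.77 for Src, and -0.89 and -0.64 for Nectin3.

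Of the 48 junction genes tested in db/db against CT db, edgeR called 0, and 5 had an unadjusted p under 0.05 (10.4%, beside 7.59% of all tested genes). DESeq2 called 1 (Nectin1), and 44 of all genes. Nectin1, which pairs with nectin-3 across cell contacts, had 56.3, 98.9, 116 and 46.6 CPM in db/db libraries 24, 53, 68 and 81 and 32.4 to 41.8 CPM in CT db. The lowest db/db library exceeded the highest of CT db, at a log2 fold change of 1.14 (SE 0.26, edgeR adjusted p = 0.363). Jam2, a junctional adhesion molecule, was at 250.0 to 317 CPM in db/db and 315 to 478 CPM in CT db (log2 fold change -0.54, SE 0.15, edgeR adjusted p = 0.457). Over the 48 genes the median log2 fold change was 0.06, beside 0.01 over all tested genes, with 27 above 0 and 21 below.

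For ob/ob against CT ob, 0 of the 51 junction genes were called by edgeR or by DESeq2, and 5 had an unadjusted p under 0.05 (9.80%, beside 8.16% of all tested genes). The smallest p belonged to Myo10, at 171 to 178 CPM in ob/ob, below all CT ob libraries (log2 fold change -0.52, SE 0.18, edgeR adjusted p = 0.561). It was followed by Vcl, the gene of the actin linker vinculin, at 13.1 to 13.98 CPM in ob/ob and 18.8 to 24.9 CPM in CT ob (log2 fold change -0.70, SE 0.25, edgeR adjusted p = 0.568). Over the 51 genes the median log2 fold change was -0.15, beside -0.04 over all tested genes, with 16 above 0 and 35 below.

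Between the mutants, 0 of 54 were called by edgeR or by DESeq2, and 6 had an unadjusted p under 0.05 (11.1%, beside 8.18% of all tested genes). Jam2 was at 392 to 444 CPM in ob/ob, above all db/db libraries (log2 fold change 0.58, SE 0.18, edgeR adjusted p = 0.348). Ctnnb1, the gene of beta-catenin, was at 151 to 192 CPM in ob/ob and 109 to 138 CPM in db/db (log2 fold change 0.42, SE 0.15, edgeR adjusted p = 0.434). When the mutant effects of the models were tested against each other, 0 of 54 were called by edgeR or by DESeq2, and 4 had an unadjusted p under 0.05 (7.41%, beside 8.11% of all tested genes). The ob effect minus the db effect was 0.72 for Jam2 (SE 0.26) and -2.01 for Nectin2 (SE 0.73), both with an edgeR adjusted p of 0.523.

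By list, the numbers tested in the fit of all libraries were 2 of 20 other gap junction channel genes, 7 of 7 other partners and kinases of connexin 43, 4 of 17 cadherins, 13 of 14 catenins and plaque genes, 5 of 9 nectins and nectin-like genes, 16 of 39 tight junction genes, 6 of 9 desmosome genes and 3 of 3 genes of transzonal projections. Between the controls the median log2 fold changes of these lists, in the same order, were -0.74, 0.32, 0.32, 0.01, -0.17, 0.12, 0.43 and 0.86, beside 0.06 over all tested genes. Only the partners list (Src), the nectins (Nectin3) and the transzonal projections (Fscn1 and Myo10) held a gene called there by edgeR, which called 0 in the other 5 lists. DESeq2 called the same 4 genes and Nectin2, Ctnnb1, Ctnnd1 and Cgnl1.

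The most abundant partner of connexin 43 was Nedd4, a ubiquitin ligase, at 1002 to 1491 CPM over the 14 libraries. Csnk1d, a kinase of connexin 43, was at 117 to 163 CPM. In the adherens junction plaque, Ctnnb1 was at 109 to 219 CPM and Afdn, the nectin-binding protein afadin, at 58.3 to 130.3 CPM. Among tight junction genes Jam2 was most abundant, at 250.0 to 478 CPM, and Pard3, a polarity protein, was at 44.3 to 81.7 CPM, whereas Cldn16, Cldn17 and Cldn22 were at 0 in all libraries. Pvr, a nectin-like receptor, was at 20.7 to 56.7 CPM. Of the desmosome genes, Dsp (desmoplakin) ranged from 94.7 to 516 CPM, Perp from 33.4 to 165 CPM and Dsg2 (desmoglein 2) from 6.87 to 41.1 CPM, and Pkp1 was at 0.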

How the data were processed

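GCs were profiled by a Smart-seq2 type protocol with poly(A) capture and 75 bp single reads, without molecular identifiers, so floors cover counting error only. The authors deposited raw counts per gene without normalization. The methods name cutadapt, STAR, GRCm39 and featureCounts, whereas the submitters' processing notes name Trim Galore 0.6.2, HISAT2 2.1.0 and GRCm38. Strand use and the treatment of multiple matches are not given in the sources used here, so overlapping antisense genes cannot be separated: in the annotation used, exons of Gja4 share 686 bp, of Gja1 143 bp and of Ctnna1 138 bp with an antisense gene (Lrrtm2 for Ctnna1, at 0.430 to 4.08 CPM).

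Symbols, positions and lengths came from the GENCODE annotation of GRCm39, which held 54749 of the 55414 identifiers. edgeR 4.0.16 (R 4.3.3) computed TMM factors and quasi-likelihood tests after filterByExpr (minimum count 10, minimum total 15), with Benjamini-Hochberg adjustment over all tested genes. Genes with an adjusted p up to 0.05 were called. The db model (8 libraries) and the ob model (6) were fitted alone, and the other comparisons came from 1 fit of 14. CPM used the TMM factors of that fit, and log2 CPM a prior count of 2. Alternatives were DESeq2 1.42.0, other scalings, filters and libraries.

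The genes, the 8 junction lists and the marker lists were chosen with earlier results of these data known. Named were the 7 chosen genes, junction genes called, the 3 with the highest mean CPM per list, the 2 with the smallest p per comparison, the 3 most alike per chosen gene, and the most abundant marker of each list reported other than that of the GCs around the oocyte. Others were named after their values were seen. No pair of libraries had identical values.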

Additional observations from a re-analysis of the deposited data

Results flagged for a closer look

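In groups of 4 libraries, a library was singled out when its gap to the nearest of the others, divided by the range of the group, exceeded the critical value of Dixon's test. The values checked were the levels of the genes named by rule and the summed CPM of the marker lists. Among them the criterion held for 10 of 130 combinations of a value and a group, and chance gives about 1 in 20. In db/db library 24 it held for Ctnna1 at 154 CPM (the others 102 to 110.0), Ace at 9.38 CPM, Krt8 at 33.7 CPM, and the summed markers of theca and stroma at 390 CPM and of the ovarian surface epithelium at 63.9 CPM. In db/db library 81 it held for Gadd45b at 188 CPM, and in db/db library 53 for Afdn at 130 CPM (the others 83.1 to 89.2). In CT db library 69 it held for Dsp, the lowest at 108 CPM (the others 206 to 214), and for Cdh24 at 6.59 CPM, and in CT db library 37 for Myo10 at 200 CPM (the others 115 to 123). These values are not separate findings: Ctnna1 is among the genes chosen on their levels, Ace was taken for its likeness to Ctnna1 and Gadd45b for its likeness to Gjc1, and Krt8 is part of the surface epithelium sum. For values chosen in such ways the rate of 1 in 20 does not hold, and nothing is concluded from the number found. The groups of 3 libraries were not checked in this way. Neither were the 18S share and the genes named after their values were seen, some of which also lay far from their group. In db/db library 24, Cyp17a1 was at 256 CPM (the others 9.96 to 21.5) and the 18S share at 12.8% (the others 1.10% to 1.98%). Cyp19a1 in CT db library 69 was at 106 CPM (the others 15.5 to 29.8).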

How the results depend on the processing

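No paired analysis was possible because the columns carry no replicate numbers. Leaving out the 18S gene, and leaving out CT ob library 60 with ob/ob library 106, were chosen after seeing the data, and so were the counts of called genes after thinning every library to the smallest total. Where a count moved, the cause was not tested.

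Of all genes in db/db against CT db, 1 was called by edgeR, 0 with 1 fit of all libraries or with 10 counts required in every library, 2 with scaling by library size, 44 by DESeq2 and 270 without the filter. With each library left out the number was 1 to 4. Of the junction genes 0 were called, 1 by DESeq2, 3 without the filter and 0 to 0 with libraries left out. In ob/ob against CT ob, 0 genes were called, 1 with 1 fit of all libraries, 86 by DESeq2, 359 without the filter and 0 to 0 with libraries left out. Of the junction genes 0 were called, 2 without the filter and 0 to 0 with libraries left out.

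Between the controls 834 genes were called, 3 with only the groups compared in the fit, 175 without the libraries highest in oocyte genes, 514 after thinning, 261 with scaling by library size, 1563 by DESeq2, 1727 without the filter and 112 to 1196 with libraries left out. The junction genes called were 4, and in the same order 0, 0, 1, 1, 8, 9 and 0 to 6. Over the settings other than leaving a library out, the adjusted p ranged from 3.47e-05 to 0.104 for Fscn1, from 0.00320 to 0.123 for Myo10, from 0.0172 to 0.0991 for Nectin3 and from 0.0173 to 0.197 for Src. Between the mutants 2 genes were called, 1 with 10 counts required in every library, 4 with only the groups compared in the fit, 72 by DESeq2, 535 without the filter and 2 to 3 with libraries left out. The junction genes called there were 0, 4 without the filter and 0 to 0 with libraries left out. For the difference between the mutant effects 0 genes were called, 72 by DESeq2, 329 without the filter and 0 to 1 with libraries left out, and 0 to 0 junction genes.

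Thinning was planned for the 7 chosen genes only. Of 223 log2 fold changes of these genes in other settings, 4 moved by more than their spread and 5 changed sign, and of 286 with a library left out, 5 moved and 18 changed sign. Groups held 3 or 4 libraries, and follicle size and cycle stage per library are not recorded in the files used.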
